A study of Mus musculus with 53 samples.

Results

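Among the enhancers of naive endoderm (nEnd) cultures, 420 already carried the histone mark H3K4me1 in sorted SOX2+ embryonic stem cells (ESCs) while lying away from promoters and outside the enhancers of naive pluripotent cultures. They are called premarked primitive endoderm (PrE) enhancers here. An nEnd enhancer was a merged H3K27ac region holding peaks of both nEnd libraries that overlapped a merged H3K4me1 region of both nEnd libraries, and 7636 regions met this definition. Of these, 3221 overlapped no enhancer of 2iLIF or NACL culture, defined in the same way, and 1769 of the 3221 lay at least 1 kb from every annotated transcription start site (TSS). Within the 1769, 420 overlapped an H3K4me1 peak in both SOX2+ libraries, 234 in 1 of the libraries and 1115 in neither. The last are called unmarked PrE enhancers and serve as the comparison. The members were therefore selected on H3K4me1 and H3K27ac peaks of nEnd, 2iLIF and NACL, on H3K4me1 peaks of SOX2+ cells and on TSS distance, so these values describe the choice and were not tested. SOX2 and GATA6 peaks, H3K27ac of SOX2+ cells and both marks of DP cells took no part in the choice.

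The data are CUT&RUN peak lists, an assay that sequences the DNA cut free around an antibody by a tethered nuclease. All libraries came from SGGC mouse ESCs of the E14JU line, in which endogenous SOX2 is fused to GFP and GATA6 to mCherry. Clones B9 and B12 were grown in 2iLIF (MEK and GSK3 inhibition with LIF), in NACL (activin, GSK3 inhibition and LIF) or as nEnd, a self-renewing culture of PrE character, and B12 alone was grown in KOSR (serum replacement medium) and sorted into SOX2+ cells and SOX2 and GATA6 double positive (DP) cells in experiments lettered A, A1 and B. SOX2 was profiled in 2 libraries each of 2iLIF and NACL and in 3 each of SOX2+ and DP, and GATA6 in 3 DP and 2 nEnd libraries. H3K27ac and H3K4me1 each had 2 libraries in 2iLIF, NACL, nEnd and SOX2+ (A and B) and 1 in DP (A), and both nEnd H3K4me1 libraries were of clone B9. Because all SOX2+ and DP libraries are of 1 clone, and clone B9 contributed none of them, p-values measure the spread between these libraries only. In cell populations, fewer cells carrying a mark and less of it per cell cannot be told apart.

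In the inner cell mass, the PrE arises beside the epiblast and goes on to form yolk sac endoderm, with GATA6 at the top of its transcription factor network and SOX2 supporting the epiblast. H3K4me1 marks enhancers whether or not they are in use, while H3K27ac marks those in use. Enhancers with H3K4me1 alone are commonly called primed or poised. As a check of the labels, 5 of 6 PrE marker genes (Gata6, Gata4, Sox17, Pdgfra and Dab2, but not Sox7) were nearest to an nEnd enhancer, and all 6 of Sox2, Nanog, Pou5f1, Zfp42, Esrrb and Klf4 were nearest to an enhancer in both 2iLIF and NACL. The markers also overlapped between cultures, since 4 of those 6 pluripotency genes were nearest to an nEnd enhancer and 4 and 3 of the 6 PrE genes to one of 2iLIF and of NACL.

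The sequences below show what the nEnd GATA6 peak of a premarked enhancer looks like, first at 6 members bound by both SOX2 and GATA6 in at least 2 DP libraries each, and then at 2 members without a SOX2 peak in any of the 10 SOX2 libraries. Each is the GRCm38 (mm10) plus strand, read 5′ to 3′ and centred on the maximum of the GATA6 peak in nEnd B9, and none overlaps an annotated exon. Capitals mark AGATAA, a core that GATA factors recognise, and CATTGT, a core that SOX factors recognise, each on either strand. The co-bound members lie at chr13:31477282-31477482 (nearest to Foxq1), chr2:69607790-69607990 (Lrp2), chr15:96524326-96524526 (Slc38a1), chrX:133675194-133675394 (in an intron of Pcdh19), chr11:61294518-61294718 (Aldh3a2) and chr4:147418018-147418218 (Zfp978). Those without SOX2 lie at chr9:102924813-102925013 (Ryk) and chr12:4719422-4719622 (Itsn2).
Foxq1: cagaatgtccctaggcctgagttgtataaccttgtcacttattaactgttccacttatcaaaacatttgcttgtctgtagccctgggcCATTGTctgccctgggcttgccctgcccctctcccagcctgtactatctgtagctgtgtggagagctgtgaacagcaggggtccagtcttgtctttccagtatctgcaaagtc
Lrp2: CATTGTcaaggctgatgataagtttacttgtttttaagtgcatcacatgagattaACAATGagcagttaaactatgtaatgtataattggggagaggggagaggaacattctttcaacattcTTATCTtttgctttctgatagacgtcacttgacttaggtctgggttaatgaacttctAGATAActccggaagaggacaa
Slc38a1: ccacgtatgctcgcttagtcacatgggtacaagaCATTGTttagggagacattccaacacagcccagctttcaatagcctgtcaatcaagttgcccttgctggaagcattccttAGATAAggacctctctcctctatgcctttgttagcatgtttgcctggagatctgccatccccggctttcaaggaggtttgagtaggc
Pcdh19: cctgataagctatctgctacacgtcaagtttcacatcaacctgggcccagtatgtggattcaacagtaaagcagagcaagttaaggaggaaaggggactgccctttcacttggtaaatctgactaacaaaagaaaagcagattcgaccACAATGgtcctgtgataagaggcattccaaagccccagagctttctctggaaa
Aldh3a2: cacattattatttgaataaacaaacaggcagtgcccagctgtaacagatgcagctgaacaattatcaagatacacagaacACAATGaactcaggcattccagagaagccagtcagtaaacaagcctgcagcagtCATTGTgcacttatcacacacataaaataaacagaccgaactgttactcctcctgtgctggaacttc
Zfp978: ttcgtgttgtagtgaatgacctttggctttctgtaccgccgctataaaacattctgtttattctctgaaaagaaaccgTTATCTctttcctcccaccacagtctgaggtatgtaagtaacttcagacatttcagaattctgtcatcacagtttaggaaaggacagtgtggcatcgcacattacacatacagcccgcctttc
Ryk: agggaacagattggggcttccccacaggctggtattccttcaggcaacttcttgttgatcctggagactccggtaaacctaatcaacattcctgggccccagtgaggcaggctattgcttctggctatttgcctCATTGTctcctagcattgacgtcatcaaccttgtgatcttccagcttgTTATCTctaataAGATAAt
Itsn2: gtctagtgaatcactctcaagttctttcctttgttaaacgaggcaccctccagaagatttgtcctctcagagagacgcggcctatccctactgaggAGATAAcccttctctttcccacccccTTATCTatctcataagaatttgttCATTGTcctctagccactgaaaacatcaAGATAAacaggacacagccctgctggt

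The Lrp2 window holds 2 GATA and 2 SOX strings and the Slc38a1 window 1 of each, whereas the Foxq1, Pcdh19 and Aldh3a2 windows hold SOX strings and no AGATAA. The Foxq1, Pcdh19 and Aldh3a2 windows do hold the related string TGATAA or its reverse complement, which was not searched or marked. The Zfp978 window holds 1 GATA string and no SOX string. Of the windows without a SOX2 peak in any library, Ryk holds 2 GATA strings and Itsn2 holds 3, and each also holds 1 SOX string. These are descriptions of letters and not of bound sites. Of the 343 members with a GATA6 maximum in nEnd B9, 208 (60.6%) held the GATA string in such a window, compared with 57.3% of all 24223 GATA6 peaks of that library. The SOX string was held by 105 of the 343 (30.6%) and by 27.5% of all those peaks.

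Premarked enhancers had a median width of 6059 bp, compared with 5008 bp for unmarked, 5826 bp for the 234 regions marked in 1 library and 8781 bp for all nEnd enhancers. The part of this width in the shares of all nEnd enhancers given here was not tested. They lay a median of 20594 bp from the nearest TSS of a protein-coding gene, and 104 of them (24.8%) were 50 kb or more away. Unmarked enhancers lay at a median of 20122 bp and all nEnd enhancers, promoters included, at 1270 bp. Of the members, 218 (51.9%) were intergenic, 103 (24.5%) lay in an intron of a protein-coding gene without touching an exon, 82 touched both and 17 touched an exon of another transcript type. The member closest to a TSS lay 1015 bp from it, and the closest region left out by the distance limit alone lay at 991 bp. Of the 234 regions just outside the H3K4me1 requirement, 45 had a peak in SOX2+ A alone and 189 in SOX2+ B alone, whose list was longer (78354 against 58085 peaks).

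The H3K4me1 peaks of SOX2+ cells covered a part of each member. They took up 25.2% of the members' bases in SOX2+ A and 25.5% in SOX2+ B. The strongest nEnd H3K27ac maximum lay inside such a peak in 248 (59.0%) and 244 (58.1%) members, and the nEnd GATA6 maximum in 188 (49.3%) and 195 (51.2%) of the 381 members with one. These peaks are among those that chose the members, and the shares are a description. Within each list the members' strongest H3K4me1 peaks stood at a median percentile of 48.2 in SOX2+ A and 63.0 in SOX2+ B, near the middle of all peaks. In nEnd the members' strongest H3K4me1 peaks stood at 81.1 and 69.0.

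The mark was not limited to KOSR culture. A peak of H3K4me1 was present at 12.1% of members in 2iLIF B9, at 70.2% in 2iLIF B12, at 34.05% in NACL B9 and at 22.4% in NACL B12. The same libraries had one at 53.2%, 71.1%, 60.5% and 51.9% of all nEnd enhancers. A peak in both 2iLIF libraries was found at 43 members (10.2%) and in both NACL libraries at 51 (12.1%), where all nEnd enhancers had 52.3% and 47.9%, and 329 members (78.3%) had one in at least 1 of the 4 libraries. The remaining 91 (21.7%) had none, a share close to the 23.5% of all nEnd enhancers and below the 79.5% of unmarked enhancers. The rule asked for both libraries of a medium. Without 2iLIF B9 H3K4me1 as a requirement 239 members were left, and without 2iLIF B12, NACL B9 or NACL B12 there were 421, 382 and 348. H3K27ac, whose lists in these media held 210904 to 401853 peaks, was called at 78.3% and 87.9% of members in 2iLIF and at 76.0% and 90.2% in NACL. The same libraries had it at 87.2%, 92.4%, 85.6% and 92.2% of all nEnd enhancers and at 55.9%, 73.6%, 50.4% and 70.7% of unmarked ones. In nEnd the H3K27ac lists held 21394 and 20072 peaks. The label PrE enhancer therefore stands for the absence of a region with both marks in both clones, not for the absence of either mark.

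In SOX2+ cells, H3K27ac was rare at the members that carried H3K4me1. A peak was present at 48 members (11.4%) in SOX2+ A and at 52 (12.4%) in SOX2+ B, and 355 members (84.5%) had none in either, compared with 59.85% of all nEnd enhancers and 98.6% of unmarked ones. The 35 members with H3K27ac in both SOX2+ libraries (8.33%) compare with 29.3% of all nEnd enhancers and with 1 of 1115 unmarked enhancers. In DP cells, H3K4me1 was present at 416 members (99.0%), where 89.3% of all nEnd enhancers and 49.8% of unmarked ones had it. H3K27ac was present at 251 members (59.8%) in DP, where 69% of all nEnd enhancers and 25.4% of unmarked ones had it. For 189 members (45.0%) H3K27ac was seen in DP and in neither SOX2+ library, as it was for 29.5% of all nEnd enhancers and 24.6% of unmarked ones. The DP lists were longer than those of SOX2+ cells, with 76260 H3K27ac peaks against 13514 and 14722, and 130749 H3K4me1 peaks against 58085 and 78354. With 1 DP library per mark and lists of unequal length, no test was made, and the part of list length in these differences was not tested. In the 1 kb around the nEnd H3K27ac maximum, DP H3K27ac was present at 44.0% of members and 15.5% of unmarked enhancers.

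**Figure D1:**
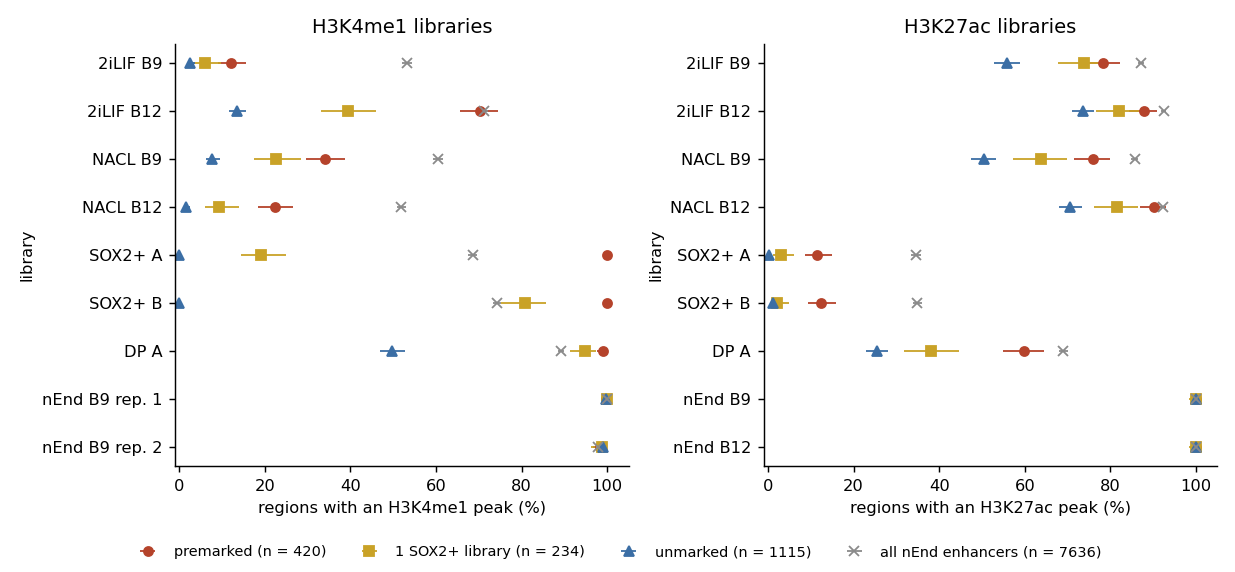
Percent of regions with an H3K4me1 peak (left) or an H3K27ac peak (right) in each library, for premarked, unmarked, 1-library and all nEnd enhancers. Bars are 95% Clopper-Pearson intervals over regions, the nEnd, 2iLIF, NACL and SOX2+ H3K4me1 values follow from the selection, and the premarked regions stand at 11.4% and 12.4% for H3K27ac in SOX2+ cells but at 59.8% in DP.

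SOX2, the pluripotency factor, had peaks at the members in every SOX2 library. The share of members with a peak was 12.9% and 10.5% in 2iLIF B9 and B12, 32.1% and 24.3% in NACL B9 and B12, and 26.9%, 29.5% and 18.1% in SOX2+ A, A1 and B. The same libraries had a peak at 3.32%, 1.26%, 6.996%, 4.30%, 4.48%, 4.84% and 2.78% of unmarked enhancers, and at 20.9%, 15.01%, 36.9%, 25.5%, 26.7%, 31.65% and 19.4% of all nEnd enhancers, in the same order. In each of the 7 libraries premarked enhancers thus had a peak more often, by 3.875 to 8.34 times, and the values of both classes do not overlap. The mean was 22.04% ± 8.37 (SD, n = 7) at premarked and 3.997% ± 1.80 at unmarked enhancers, a difference of 18.04 percentage points. An exact two-sided sign flip test over the 7 libraries gave p = 0.0156, the smallest it can give, and 0.0583 after Benjamini-Hochberg adjustment over the 7 tests made, which misses the 0.05 threshold. The difference was 9.58 points in the 1 kb around the H3K27ac maximum and 3.18 points with 1378 peaks per library, when 6 of the 7 libraries had no peak left at an unmarked enhancer.

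The higher SOX2 share was seen against unmarked enhancers but not against nEnd enhancers in general. A peak in at least 2 of the 3 SOX2+ libraries was present at 100 members (23.8%), against 25.2% of all nEnd enhancers and 42 unmarked ones (3.77%). SOX2 was spread unevenly among the members. No peak was called in any of the 10 SOX2 libraries at 219 members (52.1%), close to the 53.4% of all nEnd enhancers, and all 10 had one at 16 (3.81%), against 4.20% of all nEnd enhancers and none of the 1115 unmarked ones. The 234 regions marked in 1 SOX2+ library lay between both classes in each SOX2 library, at 5.13% to 15.4% in the pluripotent cultures.

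In DP cells, SOX2 was found at 15% of members in experiment A, 18.1% in A1 and 4.52% in B. The unmarked enhancers had 4.22%, 4.84% and 0.179%, and all nEnd enhancers 14.6%, 16.3% and 4.86%. All 3 libraries had more at the members, and the short list of experiment B (1378 peaks, against 4859 and 5320) gave the lowest values. The mean difference was 9.46 points, with an exact sign flip p = 0.25, the smallest that 3 libraries allow (adjusted p = 0.35). It was 6.52 points in the 1 kb around the H3K27ac maximum and 5.33 with 1378 peaks per library. A peak in at least 2 DP libraries was present at 53 members (12.6%), which is close to the 12.5% of all nEnd enhancers. Most members with SOX2 in at least 2 DP libraries also had it in at least 2 SOX2+ libraries, as over all nEnd enhancers. The SOX2 lists of SOX2+ cells were longer, at 10513 to 20609 peaks, and the part of list length was not tested. Of the 100 members with SOX2 in at least 2 SOX2+ libraries, 45 had it in at least 2 DP libraries, and of the other 320 members 8 did (2.5%). Over all nEnd enhancers these shares were 41.9% and 2.56%. Another 40 members (9.52%) with SOX2 in at least 2 SOX2+ libraries had no DP SOX2 peak at all, near the 10.6% of all nEnd enhancers in that state. Where both were present, the strongest SOX2 maxima of SOX2+ and DP lay within 200 bp of each other at 39 of 45 members (86.7%), with a median distance of 20 bp, near the 84.9% of all nEnd enhancers with such peaks.

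As a share of each library's own SOX2 peaks, premarked enhancers took 1.502%, 1.65% and 1.38% in DP A, A1 and B, and 0.463% to 0.837% in the 7 pluripotent libraries. All 3 DP libraries lay above all 7 others in the full lists. The mean was 1.51% ± 0.138 (SD, n = 3) against 0.667% ± 0.147 (SD, n = 7), with an exact permutation p = 0.0167, the smallest possible for 3 against 7, and an adjusted p = 0.0583. The difference of 0.845 points was 0.9503 with 1378 peaks per library, where the groups overlapped (exact permutation p = 0.05, adjusted p = 0.117), and 0.704 against the 3 SOX2+ libraries alone, for which p cannot go below 0.1. All nEnd enhancers held 28.6% to 30.5% of SOX2 peaks in DP and 15.5% to 19.1% in the pluripotent cultures. Of the SOX2 peaks at nEnd enhancers, premarked ones held 4.52% to 5.45% in DP and 2.82% to 4.38% in the pluripotent libraries, a difference that was not tested. The split of SOX2 peaks between premarked and unmarked enhancers differed by −0.510 points on average, within the spread between libraries, with premarked shares of 60.3%, 60.7% and 90.5% in DP and 62.2% to 76.7% in the pluripotent libraries (exact permutation p = 0.933, adjusted p = 0.933). The 90.5% of DP B rests on 21 peaks, 19 at premarked and 2 at unmarked enhancers, and without that library the difference was −10.5 points. With 1378 peaks per library it was −17.6 points (exact permutation p = 0.0333, adjusted p = 0.117).

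**Figure D2:**
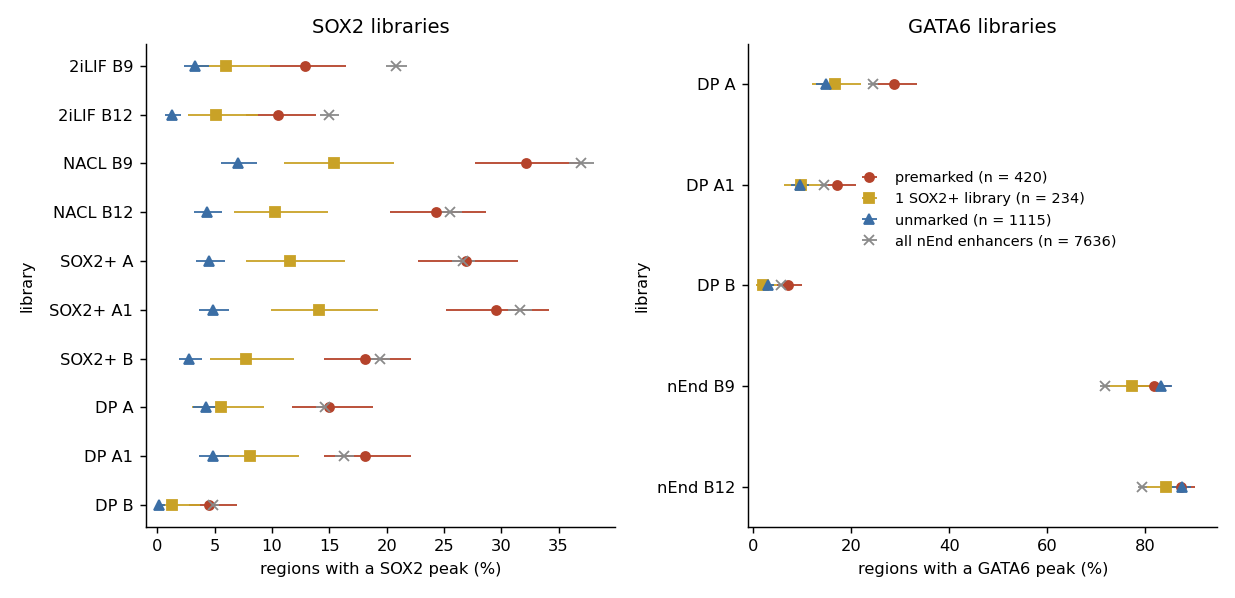
Percent of premarked, 1-library, unmarked and all nEnd enhancers with a SOX2 peak (left) or a GATA6 peak (right) in each library. Bars are 95% Clopper-Pearson intervals over regions, and premarked enhancers lie above unmarked ones in all 10 SOX2 and all 3 DP GATA6 libraries but not in the nEnd GATA6 libraries (81.7% against 83.2% in B9).

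GATA6, the factor that drives PrE fate, had peaks at a larger share of premarked than of unmarked enhancers in DP but not in nEnd. In DP it had a peak at 28.8%, 17.1% and 7.14% of members in experiments A, A1 and B, where the unmarked enhancers had 14.8%, 9.51% and 3.14%. In nEnd it had a peak at 81.7% and 87.1% of members in B9 and B12, and at 83.2% and 87.4% of unmarked enhancers. All nEnd enhancers had 24.45%, 14.4% and 5.66% in the DP libraries and 71.7% and 79.3% in the nEnd libraries. The difference, premarked minus unmarked, was thus 14.01, 7.64 and 4.004 points in the 3 DP libraries and −1.56 and −0.301 points in the nEnd libraries. Over the 5 libraries together the mean difference was 4.76 points, with an exact sign flip p = 0.25 (adjusted p = 0.35, smallest possible p = 0.0625). For the 91 members without H3K4me1 in any 2iLIF or NACL library it was 9.64 points (exact sign flip p = 0.0625, adjusted p = 0.146), and both nEnd libraries were then positive as well, at 89.0% against 83.4% and 90.1% against 87.5%. For all members it was 2.44 points without DP A GATA6, 2.02 in the 1 kb around the H3K27ac maximum and 1.41 with 1391 peaks per library. Of the GATA6 peaks at either class, 45.5%, 42.9% and 48.6% lay at premarked enhancers in DP A, A1 and B, and 29.3% and 30.6% in nEnd B9 and B12. These ranges do not overlap, and the mean of 45.6% ± 2.86 (SD, n = 3) exceeded that of 29.9% ± 0.944 (SD, n = 2) by 15.7 points. The exact permutation p = 0.2 is the smallest that 3 against 2 libraries allow (adjusted p = 0.35). With 1391 peaks per library the difference was 20.3 points. The DP libraries came from clone B12 in KOSR and the nEnd libraries from both clones in another medium, and their lists were shorter (1391 to 8316 against 24223 and 32510 peaks).

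As a share of all GATA6 peaks, premarked enhancers took 1.80%, 2.198% and 2.44% in DP A, A1 and B, and 2.37% and 2.30% in nEnd B9 and B12. The groups overlapped, with a mean difference of −0.190 points and an exact permutation p = 0.6 (adjusted p = 0.70). The difference was −1.99 points with 1391 peaks per library, −0.456 with the stronger 50% of peaks, and −0.720 and −0.299 with members chosen without SOX2+ A or without SOX2+ B H3K4me1, each at p = 0.2, the smallest this exact test can give. A peak in at least 2 DP libraries was present at 66 members (15.7%), compared with 13.6% of all nEnd enhancers and 99 unmarked ones (8.88%), and a peak in both nEnd libraries at 328 members (78.1%), compared with 69.1% of all nEnd enhancers and 81.3% of unmarked ones. All 66 members with DP GATA6 also had GATA6 in both nEnd libraries, as did 96.2% of all nEnd enhancers and 97.98% of unmarked ones with DP GATA6. Their strongest DP and nEnd maxima lay a median of 22 bp apart, and within 200 bp at 52 of the 66 (78.8%), near the 76.95% of all nEnd enhancers with such peaks. A further 206 members (49.0%) had GATA6 in both nEnd libraries and no DP GATA6 peak in any experiment, compared with 45.65% of all nEnd enhancers and 65.8% of unmarked ones.

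**Figure D3:**
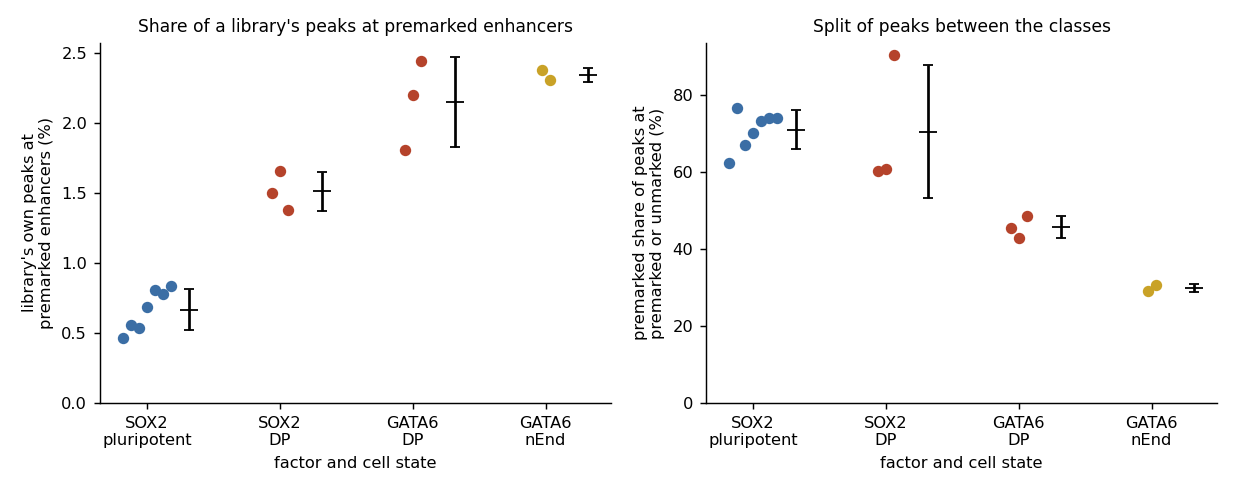
Percent of each library's own peaks that lie at premarked enhancers (left), and premarked share of the peaks at premarked or unmarked enhancers (right), by factor and cell state. Points are libraries and bars are the mean ± SD, and the GATA6 split is 42.9% to 48.6% in DP and 29.3% to 30.6% in nEnd.

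Both factors were present in at least 2 DP libraries each at 24 members, which is 5.71% (95% interval 3.70% to 8.38%), near the 6.33% of all nEnd enhancers. The share was 11.9% with a peak in any DP library, 0.952% with peaks in all 3 and 3.81% in the 1 kb around the H3K27ac maximum. The corresponding number for unmarked enhancers was 27 (2.42%). Of the 66 members with GATA6 in DP, 24 (36.4%) had SOX2 as well, and of the 354 others 29 (8.19%). Over all nEnd enhancers these shares were 46.3% and 7.11%. At the 24 co-bound members the SOX2 and GATA6 maxima lay a median of 46.5 bp apart, and within 200 bp at 20 of them (83.3%), against 67.9% of the 483 co-bound nEnd enhancers and 96.3% of the 27 unmarked ones. All 24 had H3K4me1 and H3K27ac in DP, as did 95.9% of the 483 and 74.1% of the 27. No H3K27ac was called in either SOX2+ library at 17 of the 24 (70.8%), against 35.2% of the 483 and 96.3% of the 27. SOX2 was present in at least 2 SOX2+ libraries at 16 of the 24 (66.7%), against 75.98% and 25.9%. It was in no SOX2+ library at 7 (29.2%), against 17.8% and 70.4%. At 5 of the 24 (20.8%) it was in none of the 7 pluripotent libraries, against 11.6% and 59.3%. None of these differences was tested. H3K27ac in DP was called at 58 of the 66 members with DP GATA6 (87.9%) and at 193 of the 354 others (54.5%). For all nEnd enhancers these shares were 88.2% and 65.95%, and for unmarked ones 45.5% and 23.4%. Neither factor had a peak in any DP library at 257 members (61.2%), compared with 67.9% of all nEnd enhancers and 83.5% of unmarked ones.

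The 4 members with most peaks had them in all 3 SOX2 and all 3 GATA6 libraries of DP cells, and each of the 4 had SOX2 in all 7 pluripotent libraries too. They lie nearest to Slc38a1, a neutral amino acid transporter, in an intron of Pcdh19, a protocadherin, and nearest to Aldh3a2, a fatty aldehyde dehydrogenase, and Zfp978. Zfp978 is a zinc finger protein of a family with closely related copies, so the placement of reads may be uncertain there and was not checked. The Slc38a1 member (chr15:96520581-96530276) had no H3K4me1 peak in any 2iLIF or NACL library and no H3K27ac in SOX2+ cells. Its GATA6 peaks stood at percentiles 93.3 and 94.4 of all peaks in nEnd B9 and B12, and at 89.8, 74.1 and 42.3 in DP A, A1 and B, so it was a strong peak in nEnd and of varied rank in DP. The Aldh3a2 and Zfp978 members, by contrast, carried H3K27ac in both SOX2+ libraries. The other 6 of the 10 members with peaks in most DP factor libraries had GATA6 in all 3 and SOX2 in 2. They lie nearest to Thumpd3, Foxq1, Diras2, Syt1, Serp2 and Lrp2. The Thumpd3 member (chr6:113000145-113019862) had SOX2 in no SOX2+ library and in 2 of the 7 pluripotent ones, with GATA6 at percentiles 99.9 and 99.8 in nEnd. The member in an intron of Syt1, the calcium sensor of synaptic vesicle release, had the highest GATA6 ranks in DP among these 10, at percentiles 99.7, 99.4 and 99.2.

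Nearest protein-coding genes give each enhancer a name and not a target. The members were nearest to 384 genes, 1.75% of all 21911 protein-coding genes, and the unmarked enhancers to 891 (4.07%), with 97 genes in both lists. These are 25.3% of the genes of premarked and 10.9% of those of unmarked enhancers. Of 20 genes listed here as PrE transcription factors, 12 were nearest to an nEnd enhancer of some kind. To a premarked enhancer 6 were nearest, among them Gata6, Foxa2, Foxq1, Sall4 and Tcf7l2. To an unmarked one 6 were, with Foxa2, Foxq1 and Tcf7l2 among those in both. No gene of the 16 for basement membrane and matrix was nearest to a premarked enhancer and 2, Lama1 and Fn1, were nearest to an unmarked one, although 15 of the 16 were nearest to an nEnd enhancer of some kind. Of 16 genes for endocytosis and nutrient uptake, 2 (Dab2 and Lrp2) were nearest to a premarked enhancer and 4 to an unmarked one, and of 20 signalling genes of endoderm 3 (Bmper, Flrt3 and Vegfa) and 7. Of 16 adhesion, cytoskeleton and protease genes, 2 (Pdpn and Podxl) and 3 were, and of 10 anterior endoderm genes 1 (Hesx1) and 1. Among 22 pluripotency genes, Sall1 was nearest to a premarked enhancer and Klf4 to an unmarked one, and none of the 20 neural or 16 trophoblast genes was nearest to either.

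The 17 members of these 15 genes all had GATA6 in both nEnd libraries, as did 78.1% of all members and 69.1% of all nEnd enhancers. They differed in the SOX2 peaks of pluripotent and DP libraries and in the GATA6 peaks of DP libraries. The member nearest to Gata6 itself, 96928 bp from its TSS, had GATA6 at percentiles 98.8 and 98.2 in nEnd B9 and B12 and H3K27ac in DP. It had no SOX2 peak in any pluripotent library and no SOX2 or GATA6 peak in any DP library. The Foxq1 member (chr13:31456481-31500171), 43691 bp wide and near a forkhead factor gene, had SOX2 in 3 pluripotent and 2 DP libraries, GATA6 in all 3 DP libraries and nEnd GATA6 at percentiles 99.2 and 99.6. The members of Foxa2, Sall4, Vegfa, Bmper, Pdpn, Podxl and Sall1, and 1 of the 2 of Tcf7l2, a gene for an effector of Wnt signalling, had neither factor in DP, nor H3K27ac there. The other Tcf7l2 member and those of Flrt3 and Hesx1 had GATA6 in 2 DP libraries, SOX2 in no pluripotent library, and H3K27ac in DP. Of these, only the Flrt3 member had a DP SOX2 peak, in 1 library.

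Lrp2, which encodes the endocytic receptor megalin, had 2 members of different kinds. The one at chr2:69601920-69610153 lies between genes, 15855 bp from the Lrp2 TSS, and had SOX2 in 2 DP libraries and GATA6 in all 3. Its GATA6 peaks stood at percentiles 92.7 and 99.1 in nEnd B9 and B12. The one at chr2:69543851-69569886 lies in the gene, 16143 bp from the TSS, and had SOX2 in 6 of the 7 pluripotent and all 3 DP libraries but GATA6 in no DP library. Its nEnd GATA6 peaks were weak, at percentiles 16.8 and 8.03. Both carried H3K4me1 and H3K27ac in DP. Dab2, the adaptor that works with megalin, had 1 member in an intron (chr15:6374013-6378299) with GATA6 in 1 DP library, no SOX2 peak and nEnd GATA6 at percentiles 91.8 and 98.0. The Bmper member was the only one of the 17 without H3K4me1 in DP.

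Several members seldom shared a gene. Of the 384 genes, 33 had 2 or more. Srgap1, which encodes a GTPase-activating protein of Slit and Robo signalling, had 4 premarked and 1 unmarked enhancer, and Fut8, the core fucosyltransferase, had 3 and 1. The genes with 2 that come first in alphabetical order are Ano6, Arhgap10, Arhgap18, Arhgap26, Arhgef28, Atxn7l1, Carmil1 and Ccn1.

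Short strings were searched, on either strand, in a window of 500 bp centred on the strongest nEnd H3K27ac maximum. The GATA string AGATAA occurred in 179 members (42.6%, 95% interval 37.8% to 47.5%), in 595 unmarked enhancers (53.4%, 50.4% to 56.3%) and in 39.9% of all nEnd enhancers. These intervals are over regions, and the difference between the classes was not tested. Around the nEnd GATA6 maximum the shares were 66.7% and 67.7%. Over whole enhancers there were 0.701 matches per kb in premarked and 0.821 in unmarked ones. Within the members, the string was present at 48 of 66 with GATA6 in at least 2 DP libraries (72.7%, 60.4% to 83.0%) and at 99 of 293 without DP GATA6 (33.8%, 28.4% to 39.5%), where all nEnd enhancers had 58.25% and 35.55% and unmarked ones 75.8% and 49.6%. The SOX string CATTGT occurred in 172 members (41.0%), in 48.4% of unmarked and in 35.4% of all nEnd enhancers. It was present at 54 of the 100 members with SOX2 in at least 2 SOX2+ libraries (54.0%) and at 75 of the 219 without SOX2 in any library (34.2%). In the same split all nEnd enhancers had 38.5% and 34.2%, and unmarked ones 64.3% and 46.6%. The KLF string CCACACCC was held by 6.19% of members and 7.28% of all nEnd enhancers, and the OCT string ATGCAAAT by 2.38% and 2.70%. The median G and C content of these windows was 47.0% in premarked and 45.2% in unmarked enhancers, and its part in the string counts was not tested.

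**Figure D4:**
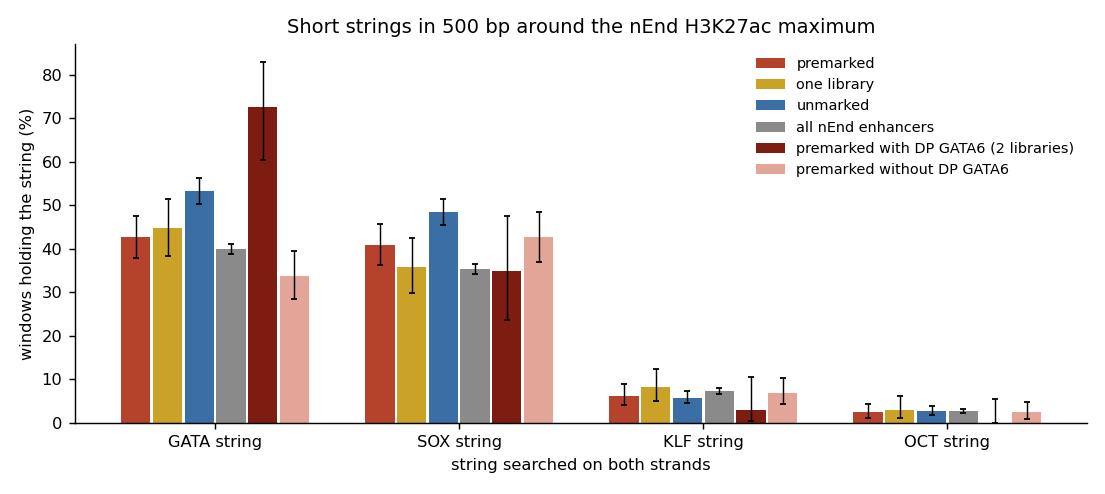
Percent of 500 bp windows around the nEnd H3K27ac maximum that hold the GATA, SOX, KLF or OCT string on either strand, by enhancer class and, within premarked enhancers, by DP GATA6. Bars start at 0, error bars are 95% Clopper-Pearson intervals over regions, and the GATA string stands at 72.7% of members with DP GATA6 and 33.8% of those without.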

How the data were processed

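The deposited lists give each peak's position on mm10 (GRCm38), its total and maximum signal and the place of the maximum. Per the submitters' processing notes, the authors used cutadapt 1.18, Bowtie2 2.3.4.1, SAMtools 1.9, Picard 2.9.1, bedtools 2.27.1, deepTools 3.2.0 and SEACR. Peaks were called per library against IgG. The lists are named relaxed for histone marks and stringent for factors, while the methods state the reverse. The deposited signal is summed coverage, scaled differently in each library, and depth is unknown, so it served only for ranks within a list, where a percentile is the share of that library's peaks with lower total signal. Lists held 1378 to 401853 peaks, and a short list can cover few regions.

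Of 35 libraries, 33 were grouped from their labels. The other 2, an H3K4me1 and an H3K27ac library of experiment B, are titled DP while their source name says SOX2+, and entered no comparison. The NACL B12 SOX2 library was grouped by its title, and the suffix sub02 in the title of the DP A GATA6 library is unexplained. The 18 IgG samples were not analysed here.

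Overlap meant 1 bp. TSSs were those of GENCODE M21, and bases were read from GRCm38. Each member was assigned to the nearest protein-coding TSS. Genes named are those of 9 lists with a member, the 10 with most members and the genes of the 10 members with peaks in most DP factor libraries, ties going to the higher nEnd GATA6 percentile. Sequences are of up to 6 members with both factors in at least 2 DP libraries, in that order with list genes first, and of the 2 members without SOX2 in any library that have the highest nEnd GATA6 percentile, none over an exon. One gene that the rule names is not reported here. The members, lists and tests were chosen with earlier results of these data known. Tests were two-sided exact sign flips or permutations over libraries, with Benjamini-Hochberg adjustment over 7 tests. Intervals are Clopper-Pearson (95%) and cover counting error over regions only. Code (Python 3.11.15, NumPy 2.4.6, pandas 2.3.3, pysam 0.24.0) was tested on simulated intervals.

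Alternatives were a peak in either library, the stronger 50% of peaks, 50% overlap, 5 kb from a TSS, equal peak numbers, 1 kb windows, peaks per Mb, SOX2+ libraries alone, a block for experiment, and leaving out each library. Windows for marks and co-binding, and members without H3K4me1 in 2iLIF or NACL, were added after seeing the data.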

Additional observations from a re-analysis of the deposited data

Results flagged for a closer look

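The difference in GATA6 between premarked and unmarked enhancers had opposite signs in DP and nEnd. The mean difference was 8.55 points in the 3 DP libraries, all of them positive, and −0.932 points in the 2 nEnd libraries, both negative but small beside the intervals over regions. For the 91 members without H3K4me1 in any 2iLIF or NACL library both nEnd values were positive. The difference between DP and nEnd in these values was not itself tested. The related split of GATA6 peaks between the classes could not go below p = 0.2 by exact permutation, and the part of clone, medium and list length was not tested.

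Both libraries left out of the groups because their labels name different sorted populations had peaks at the members. The H3K4me1 library of experiment B, with 94492 peaks, had one at 94.5% of members, 29.96% of unmarked and 82.3% of all nEnd enhancers. The H3K27ac library, with 19185 peaks, had one at 23.6%, 2.51% and 41.3%. A count of 0 among 420 would allow a share of up to 0.714%. Which population they represent cannot be told from the labels. Among the 7 pluripotent SOX2 libraries no share of members or peaks stood apart from the others by Dixon's criterion.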

How the results depend on the processing

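The number of premarked enhancers was 1045 with a peak in either nEnd library, 141 with the stronger 50% of histone peaks and 91 without H3K4me1 in any 2iLIF or NACL library, and between 239 (without 2iLIF B9 H3K4me1) and 622 when single libraries were left out. It stayed within 1.5 times the 420 with 50% overlap, 5 kb from a TSS and equal H3K4me1 peak numbers. The co-bound share was 11.9% with a peak in any DP library and 0.952% with peaks in all 3. The GATA string share was 66.7% around the GATA6 maximum, and the excess of SOX2+ H3K27ac at premarked over unmarked enhancers was 11.1 points over whole enhancers and 8.26 points in 1 kb windows. No test passed the adjusted threshold under any alternative run. The SOX2 split between DP and pluripotent libraries changed sign, from −10.5 to 4.57 points when single libraries were left out, and was −17.6 points with equal peak numbers (exact permutation p = 0.0333, adjusted p = 0.117). The share of GATA6 peaks at members, DP minus nEnd, was 0.0547 points for the 91 members above. The other 5 differences kept their direction throughout.

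With experiment as a block, the difference in SOX2 peak share between DP and SOX2+ was 0.704 points (exact sign flip p = 0.25, the smallest 3 pairs allow) and that of the split −3.21 points (p = 1). Deviations of same-letter libraries correlated at 0.053 (A), 0.008 (A1) and 0.035 (B) across all nEnd enhancers, so the letters were not treated as pairs.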

Other observations

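The 91 members with no H3K4me1 peak in any 2iLIF or NACL library, chosen after seeing the data, were also bound by SOX2 more often than the 886 unmarked enhancers without one. The shares were 8.79% against 1.69% in 2iLIF B9, 23.1% against 5.30% in NACL B9 and 23.1% against 4.51% in SOX2+ A1. All nEnd enhancers had more than the 91 members there, at 20.9%, 36.9% and 31.65% in the same order. The direction against unmarked enhancers held in all 10 SOX2 libraries. GATA6 in DP was present at 34.1%, 23.1% and 9.89% of the 91 members in experiments A, A1 and B, against 14.2%, 9.59% and 3.27%. In nEnd it was present at 89.0% and 90.1% in B9 and B12, against 83.4% and 87.5%, so that here the nEnd libraries pointed the same way as DP. All nEnd enhancers had 24.45%, 14.4% and 5.66% in DP A, A1 and B, and 71.7% and 79.3% in nEnd B9 and B12.

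At the 78 members with SOX2 in at least 2 SOX2+ libraries and GATA6 in both nEnd libraries, where both maxima lay in the member, the strongest SOX2 maximum of SOX2+ cells and the strongest GATA6 maximum of nEnd were a median of 718 bp apart, and within 200 bp at 28 of them (35.9%), against 28.5% of all nEnd enhancers and 63.9% of unmarked ones. In nEnd, 39 members (9.29%) had no GATA6 peak in either library, against 18.03% of all nEnd enhancers and 10.6% of unmarked ones.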
